A study of Arabidopsis thaliana with 12 samples.

Results

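PDF1.2 (AT5G44420), PDF1.4 (AT1G19610) and LCR67 (AT1G75830) are 3 plant defensin genes of Arabidopsis thaliana, and their RNA was followed across seedlings given abscisic acid, the compound DFPM, or both. Each gene was read through the single probe set that names it and no other gene in the platform annotation. They are 3 of the 13356 genes that such probe sets name on the array. The genes were picked with their levels in the 4 treatment groups already known, so these levels and the differences between them are given as a description, with no test. The gene table lists LCR67 also as PDF1.1, PDF1.4 as LCR78 and PDF1.2 as LCR77, where LCR stands for low-molecular-weight cysteine-rich.

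Plant defensins are small, basic, secreted peptides whose fold is held together by disulfide bridges between cysteines, and many of them slow the growth of fungi. PDF1.2 is the usual marker gene of the defence pathway run jointly by jasmonate and ethylene, in which transcription factors of the ERF family bind GCC boxes in target promoters. Abscisic acid (ABA), a hormone best known from drought and seed dormancy, is known to lower PDF1.2 RNA when jasmonate signalling is active. DFPM is a synthetic compound in which a dichlorophenyl-substituted furan is joined to piperidine through a thiocarbonyl group, and it is known to dampen ABA responses.

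All 12 arrays came from whole Col-0 seedlings without a transgene or mutation in the labels, 12 days old, grown on plates and moved to 6-well plates for treatment. The 4 groups of 3 were a solvent control with DMSO at 1:5000 by volume in water, ABA at 10 µM, DFPM at 30 µM, and ABA at 10 µM with DFPM at 30 µM. Treated groups were labelled with 6 h of exposure and DFPM as given 30 min ahead of ABA. A duration for the control is not given in the sources used here, and neither is DMSO for the treated groups. The question asked of the defensin genes is what each treatment did to their RNA, and whether each agent acted alike with and without the other.

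The values are the authors' deposited log2 levels from Affymetrix ATH1 arrays, and having 3 arrays per group limits the precision. A difference of 1 on this scale is a doubling. On every array the lowest value was 2.14, and 25.1% to 28.6% of probe sets lay within 0.1 of it, so a value near 2.14 means no signal above background. Sample titles number the arrays 1 to 3 in each group. Arrays numbered 3 stood apart: across probe sets they correlated with number 1 or 2 of their own group at r from 0.875 to 0.920, against 0.987 to 0.992 between numbers 1 and 2. The labels do not say what a number stands for, nor whether a group's arrays came from separate cultures. Errors and p-values here therefore measure spread that may be technical. In whole seedlings, fewer cells of a type and less RNA per cell cannot be told apart.

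PDF1.2 was lowest with ABA and highest with DFPM. Its log2 level was 5.64, 6.74 and 6.44 in control arrays 1, 2 and 3, and 2.36, 2.4 and 5.17 with ABA. With ABA, numbers 1 and 2 lay close to the bottom of the scale while number 3 did not. The level was 8.33, 7.73 and 6.87 with DFPM, and 3.64, 4.42 and 5.63 with both agents. Every DFPM array lay above every control array, and every control array above every ABA array. Group means ± SD (n = 3) ran in the order ABA 3.31 ± 1.61, ABA+DFPM 4.56 ± 1.00, control 6.28 ± 0.57 and DFPM 7.64 ± 0.73. The ABA and ABA+DFPM ranges overlapped, and the highest ABA+DFPM array was just under the lowest control array.

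PDF1.4 took the same order as PDF1.2 for ABA and DFPM alone, with far more spread between array numbers. Its log2 level was 8.81, 8.46 and 3.36 in the control arrays and 3.89, 4.1 and 2.35 with ABA. It was 11.14, 11.33 and 5.19 with DFPM, and 8.07, 8.92 and 3.56 with both agents. In each group number 3 was the lowest array, so that all pairs of adjacent groups overlapped. Means ± SD (n = 3) were 6.88 ± 3.05 for control, 3.45 ± 0.95 for ABA, 9.22 ± 3.49 for DFPM and 6.85 ± 2.88 for ABA+DFPM. The control and ABA+DFPM means thus lay far closer together than their SDs, whereas PDF1.2 with both agents stayed below its control arrays.

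LCR67 was at the bottom of the scale without DFPM and well above it with DFPM, whether or not ABA was present. Its log2 level was 2.17, 2.16 and 3.41 in control arrays and 2.14, 2.17 and 3.22 with ABA. These 6 arrays do not separate control from ABA, and in both groups number 3 was the highest. With DFPM the level was 7.69, 7.14 and 9.39, and with both agents 8.70, 8.95 and 10.11. Means ± SD (n = 3) were 2.58 ± 0.72 for control, 2.51 ± 0.62 for ABA, 8.08 ± 1.17 for DFPM and 9.25 ± 0.75 for ABA+DFPM. The DFPM and ABA+DFPM ranges overlapped with each other and not with either group that lacked DFPM.

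**Figure D1:**
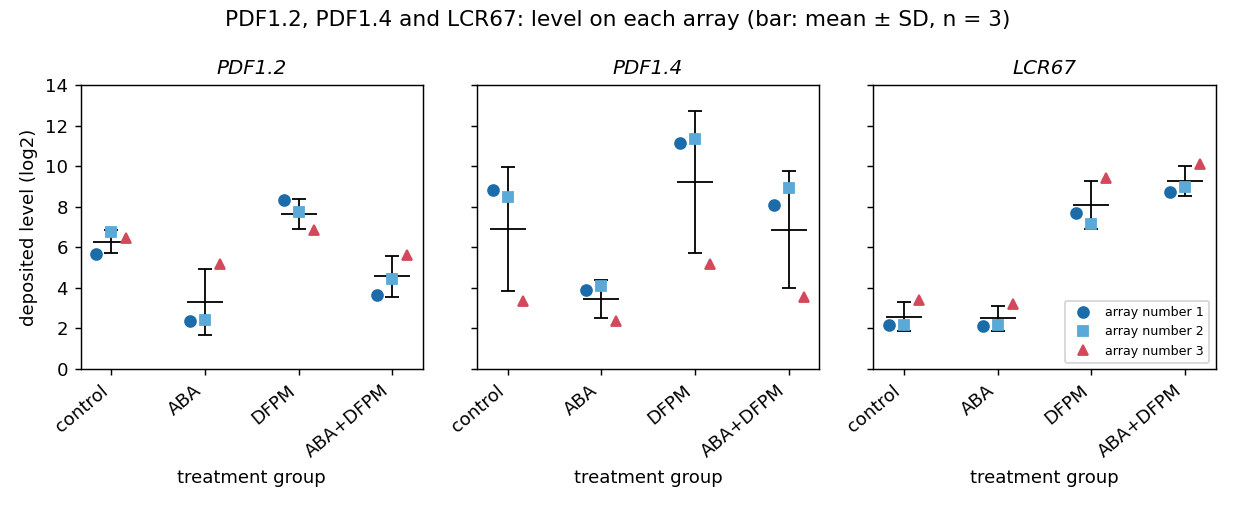
Deposited log2 level (vertical axis) of PDF1.2, PDF1.4 and LCR67 on each of the 12 arrays, by treatment group (horizontal axis). Symbols mark array numbers 1, 2 and 3, and black bars give the mean ± SD of 3 arrays. PDF1.2 and PDF1.4 are lowest with ABA and highest with DFPM, LCR67 reaches at most 3.41 without DFPM and at least 7.14 with it, and number 3 of PDF1.4 is the lowest array of each group.

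The ABA difference was measured without DFPM, as ABA minus control, and with it, as ABA+DFPM minus DFPM. For PDF1.2 it was -3.28, -4.35 and -1.27 (log2) within array numbers 1, 2 and 3 without DFPM, and -4.68, -3.30 and -1.24 with DFPM. Both sets were negative in 3 of 3 numbers, and the mean differences ± SE were -2.97 ± 0.78 and -3.08 ± 0.78 (n = 3 per group). With array number as a block the same differences had an SE of 0.72 for PDF1.2, 0.78 for PDF1.4 and 0.22 for LCR67, in each of the 4 comparisons. PDF1.2 was the 1 of 3 genes whose groups did not overlap in either comparison, against 25.7% of the 14401 probe sets tested that were lower in this way for ABA minus control and 17% for ABA+DFPM minus DFPM. Since the genes were chosen on these levels, nothing is read from that count. Without the arrays numbered 3 the mean differences of PDF1.2 were -3.81 and -3.99.

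For PDF1.4 the ABA difference was -4.92, -4.36 and -1.01 (log2) in numbers 1, 2 and 3 without DFPM, and -3.07, -2.40 and -1.63 with DFPM. In numbers 1 and 2 the gap was narrower with DFPM, and in number 3 it was wider. Number 3 stood at 3.36 in control and 2.35 with ABA, against a bottom of the scale at 2.14. The gap without DFPM thus had little room there, and the 2 gaps in number 3 cannot be compared fairly. The means were -3.43 ± 2.02 and -2.37 ± 2.02 (SE, n = 3 per group), and without number 3 they were -4.64 and -2.74. LCR67 gave -0.04, 0.01 and -0.19 without DFPM, where both groups were near background, and 1.01, 1.80 and 0.72 with DFPM. Its level with both agents was therefore the higher one in each number, by 1.18 ± 0.62 on average (1.41 without number 3), while the ranges overlapped. The ABA difference with DFPM minus that without was -0.11 ± 1.10 for PDF1.2, 1.06 ± 2.85 for PDF1.4 and 1.25 ± 0.88 for LCR67 (log2, ± SE). With array number as a block these SE were 1.02, 1.11 and 0.32.

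The DFPM difference was likewise measured without ABA, as DFPM minus control, and with it, as ABA+DFPM minus ABA. LCR67 had the widest: 5.52, 4.99 and 5.98 (log2) in numbers 1, 2 and 3 without ABA and 6.56, 6.78 and 6.88 with ABA. Mean differences were 5.50 ± 0.62 and 6.74 ± 0.62 (SE, n = 3 per group), and 5.25 and 6.67 without number 3. Control and ABA arrays 1 and 2 lay at background, so no fold is given.

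PDF1.4 was higher with DFPM in each number, by 2.33, 2.86 and 1.83 (log2) without ABA and by 4.18, 4.82 and 1.21 with ABA. The means were 2.34 ± 2.02 and 3.40 ± 2.02 (SE, n = 3 per group), and 2.6 and 4.5 without number 3. For PDF1.2 the DFPM difference was 2.68, 0.99 and 0.42 without ABA and 1.28, 2.03 and 0.46 with ABA, positive in 3 of 3 numbers both times. Its means were 1.36 ± 0.78 and 1.26 ± 0.78, and 1.83 and 1.66 without number 3. The DFPM and control arrays did not overlap for 2 of the 3 genes, PDF1.2 and LCR67, against 21.1% of probe sets that were higher in this way. For ABA+DFPM and ABA this held for LCR67 alone, against 16.9%, and as before nothing is read from these counts.

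**Figure D2:**
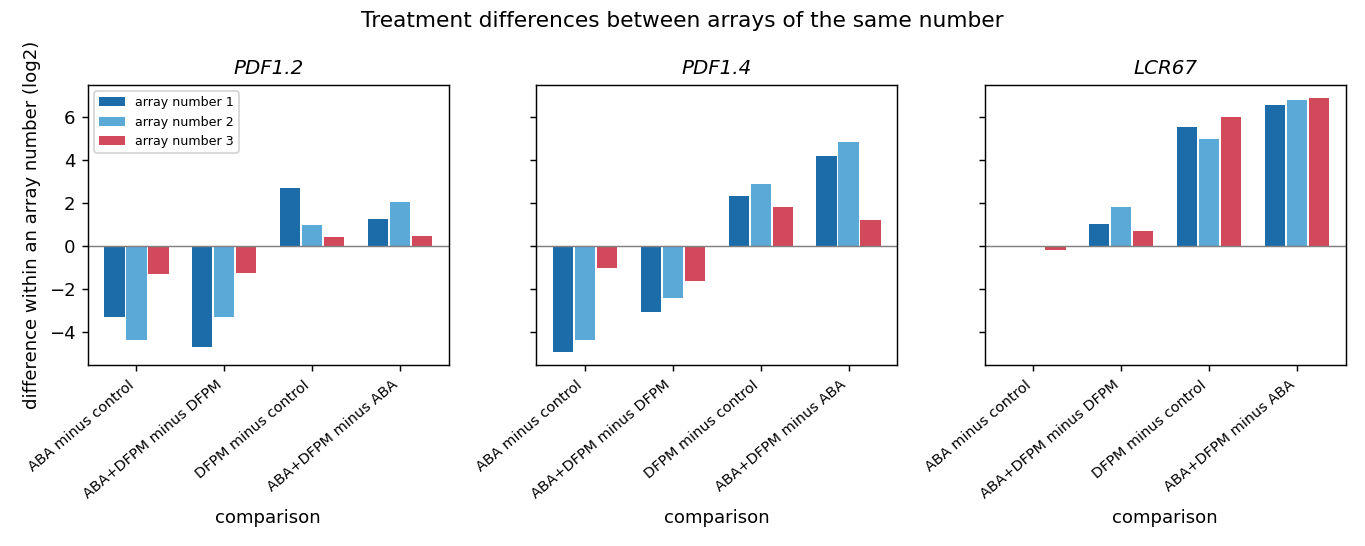
Difference in log2 level (vertical axis) between arrays of the same number in 4 comparisons (horizontal axis), for PDF1.2, PDF1.4 and LCR67, with 1 bar per array number. PDF1.2 and PDF1.4 are below 0 in both ABA comparisons and above 0 in both DFPM comparisons for each number. LCR67 is near 0 for ABA minus control and between 4.99 and 6.88 for both DFPM comparisons.

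Array number 3 differed from the other two most in PDF1.4. Averaged over the 4 groups, number 3 minus the mean of numbers 1 and 2 was -4.48 (log2) for PDF1.4. Only 25 of the 14401 probe sets had a larger shift in either direction, or 0.174%, and the median size was 0.45. The shift was -5.28 in control, -1.64 with ABA, -6.05 with DFPM and -4.94 with both agents. It was smallest with ABA, where the mean level of the gene was lowest. LCR67 went the other way, with a mean shift of 1.39 and a range of 1.07 to 1.97 over the groups. PDF1.2 had no common direction: number 3 was higher by 2.79 with ABA and by 1.59 with both agents, but gave -1.16 with DFPM and 0.25 in control. In all 4 comparisons the PDF1.2 difference was smaller in size within number 3 than within number 1 or 2.

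**Figure D3:**
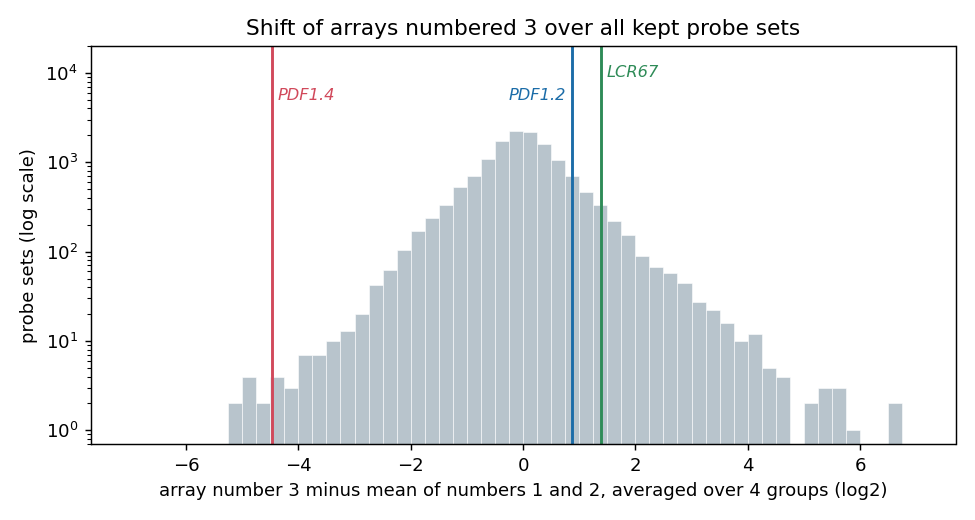
Histogram over 14401 kept probe sets of array number 3 minus the mean of numbers 1 and 2, averaged over the 4 groups (horizontal axis, log2), with the number of probe sets on a log scale (vertical axis). Vertical lines mark PDF1.4 at -4.48, PDF1.2 at 0.87 and LCR67 at 1.39.

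Markers of cell types present in a seedling were also read by array number and treatment. Of the 5 leaf markers 2 had a probe set of 1 gene in the platform table used. RCA, which activates Rubisco, had log2 levels between 13.18 and 13.41 in control, between 11.99 and 12.71 with ABA, between 9.35 and 12.36 with DFPM, and between 8.34 and 11.72 with both agents. The antenna protein gene LHCB4.1 lay between 12.69 and 13.55 in control, 12.08 and 13.02 with ABA, 9.68 and 12.70 with DFPM, and 10.04 and 12.48 with both agents. Both leaf genes were lowest in number 3 of each group. The guard cell regulator FAMA, 1 of 4 guard cell markers, was lower in number 3 too, with a mean shift of -2.01. Of 4 root hair markers, the expansin gene EXPA7 had a shift of -1.14 and EXPA18 of 0.21. RCA, LHCB4.1, FAMA and EXPA7 passed in none of the 4 treatment comparisons (limma). For DFPM minus control the adjusted p was 0.1325 for RCA and 0.1913 for LHCB4.1, or 0.0210 and 0.0156 with the block. EXPA18 was lower with DFPM, with differences of -1.17 ± 0.35 without ABA and -1.29 ± 0.35 with it (limma, adjusted p = 0.0348 and 0.0374). Over all probe sets 24% and 12.6% passed there in either direction. The remaining leaf, guard cell and root hair markers and the 3 general root markers are not named singly in that table and are not analysed here. In a sign of RNA integrity, the 3' minus 5' difference of the ubiquitin control was at least 1.03 on the control and DFPM arrays and at most 0.97 on the arrays with ABA or both agents. The actin control split the same way, at 4.86 or more and at 4.68 or less. For the GAPDH control the groups overlapped, as arrays without ABA lay between 0.91 and 1.31, ABA arrays between 1.24 and 1.32, and arrays given both agents between 1.05 and 1.27. The part of these shifts in the defensin results was not tested.

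Other defensin genes were taken from a list of 12, of which 9 had a probe set of 1 gene and 5 passed the filter on low values. The remaining 4, LCR72, LCR80, LCR66 and LCR59, had fewer than 3 arrays at log2 4. The 5 were PDF1.2b, a close relative of PDF1.2, and 4 genes of the second defensin class: PDF2.1, PDF2.5, LCR68 (also PDF2.3) and LCR69 (also PDF2.2). PDF2.1 and LCR68 are direct neighbours in the genome. These genes were tested with limma across all 14401 probe sets, with Benjamini-Hochberg adjusted p. The list as such was written with earlier results of these data known, so its choice may not be free of these levels.

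PDF1.2b had log2 levels of 10.51, 10.23 and 7.94 in control, 5.38, 5.20 and 6.14 with ABA, 11.07, 10.6 and 8.21 with DFPM, and 7.91, 8.29 and 7.40 with both agents. All ABA arrays were below all others. It fell with ABA, with a difference of -3.99 ± 0.80 (SE, n = 3 per group, limma, adjusted p = 0.0050). The DFPM difference was 0.39 ± 0.80 without ABA (adjusted p = 0.751) and 2.29 ± 0.80 with ABA (adjusted p = 0.0935, or 0.0287 with array number as a block). The ABA difference with DFPM was -2.09 ± 0.80 (adjusted p = 0.112, or 0.0366 with the block). That difference minus the one without DFPM was 1.90 ± 1.14, which did not pass (limma, adjusted p = 0.964, or 0.428 with the block). Its probe set bears the suffix that Affymetrix gives to probes shared with similar sequences, so signal from PDF1.2, PDF1.2c or PDF1.3 may be included. As PDF1.2 was chosen on its levels, the PDF1.2b tests may not be independent of that choice. PDF1.2c, the direct neighbour of PDF1.2, and PDF1.3, the direct neighbour of PDF1.2b, are not analysed here.

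The second-class genes changed otherwise. PDF2.1 rose with ABA, from 4.28, 3.63 and 3.06 in control to 6.47, 6.99 and 6.31 (2.94 ± 0.33 on the log2 scale, limma, adjusted p = 1.48e-04, n = 3 per group). With DFPM it lay at 3.69, 2.92 and 3.56 (-0.27 ± 0.33, adjusted p = 0.581), and with both agents at 4.74, 4.96 and 4.70. It thus fell by 1.79 ± 0.33 when DFPM was added to ABA (adjusted p = 0.0072), and rose by 1.41 ± 0.33 when ABA was added to DFPM (adjusted p = 0.0195). Without ABA only control array 1 reached log2 4, so PDF2.1 passed the filter through its arrays with ABA. Its rises with ABA, and its fall from the ABA level when DFPM was added, are therefore read as description. With no filter the adjusted p was 6.32e-04 for ABA minus control and 0.0172 for ABA+DFPM minus ABA (limma). Subtracting the ABA difference without DFPM from that with DFPM gave -1.52 ± 0.46 for the interaction, which did not pass (limma, adjusted p = 0.340).

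PDF2.5, whose product is known to bind cadmium, fell with ABA from 8.46, 8.51 and 9.46 to 5.75, 5.76 and 7.08, a difference of -2.61 ± 0.51 (log2, limma, adjusted p = 0.0040, n = 3 per group). It also fell when ABA was added to DFPM, with a difference of -2.12 ± 0.51 (adjusted p = 0.0220), from 7.30, 6.82 and 8.24 to 4.62, 5.53 and 5.83. Its DFPM differences were -1.36 ± 0.51 without ABA (adjusted p = 0.0767, or 0.0025 with the block) and -0.87 ± 0.51 with ABA (adjusted p = 0.299, or 0.0269 with the block). No DFPM array reached the lowest control array.

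LCR69 was among the bright probe sets, at 12.59, 12.57 and 12.61 in control and 12.50, 12.47 and 12.86 with ABA (log2). DFPM brought it to 10.98, 11.09 and 9.51, a difference of -2.07 ± 0.39 (limma, adjusted p = 0.0051, n = 3 per group). With both agents it stood at 10.66, 10.82 and 9.95, a difference of -2.14 ± 0.39 from ABA alone (adjusted p = 0.0074). ABA moved it by 0.02 ± 0.39 without DFPM (adjusted p = 0.980) and by -0.05 ± 0.39 with it (adjusted p = 0.950). LCR67 was higher and LCR69 lower in the groups with DFPM than in those without it.

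LCR68 went from 10.39, 10.89 and 12.06 in control to 9.17, 9.17 and 10.07 with DFPM (log2), a difference of -1.64 ± 0.54 (limma, adjusted p = 0.0497, n = 3 per group). From 10.23, 10.30 and 11.45 with ABA it went to 8.13, 8.47 and 9.61 with both agents, a difference of -1.93 ± 0.54 (adjusted p = 0.0424). With array number as a block the adjusted p was 1.39e-04 for the first and 9.48e-05 for the second (limma). In the fit without the block both calls lay close to the threshold. The first was lost there without any 1 array other than control 1, ABA 3 or ABA+DFPM 3 (adjusted p up to 0.135). The second was lost without any 1 array other than control 1, control 3, DFPM 3 or ABA+DFPM 3 (up to 0.129). The ABA differences were -0.45 ± 0.54 (adjusted p = 0.573, or 0.0468 with the block) and, with DFPM, -0.74 ± 0.54 (adjusted p = 0.394, or 0.0097 with the block). Number 3 was the highest array of each group, as for LCR67 and PDF2.5.

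**Figure D4:**
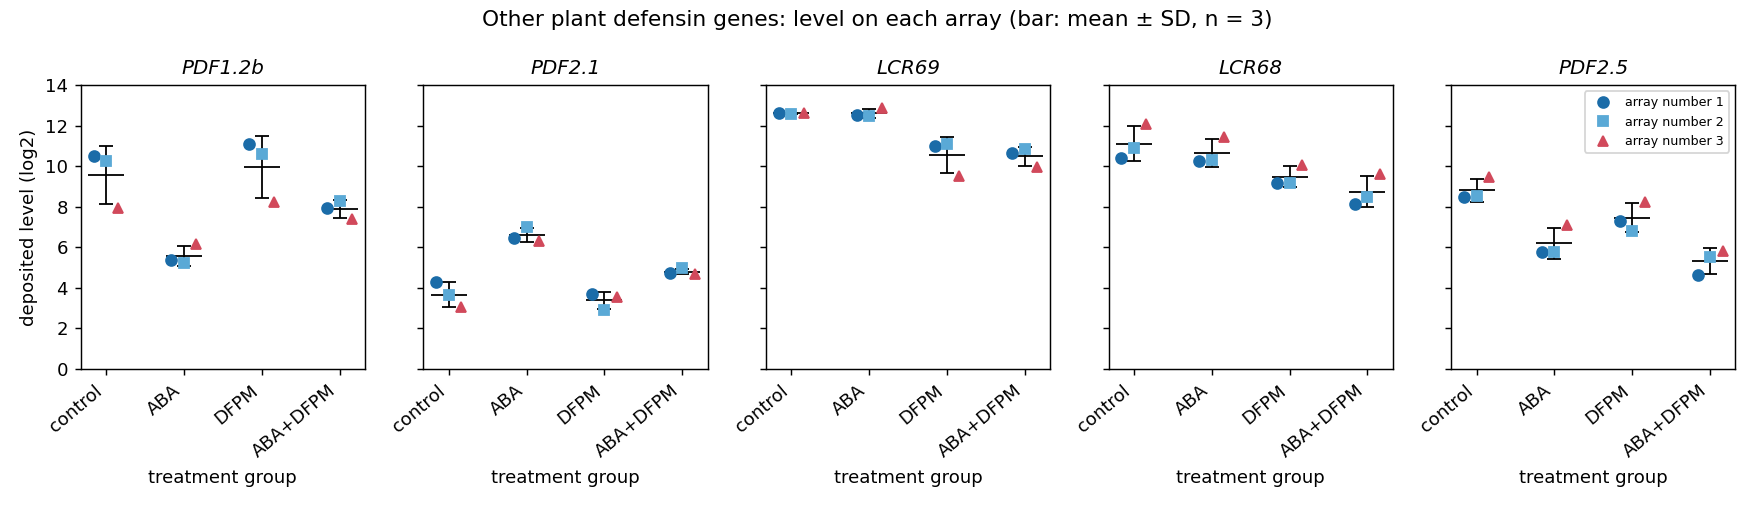
Deposited log2 level (vertical axis) of 5 other defensin genes on each array, by treatment group (horizontal axis), with symbols for array numbers 1, 2 and 3 and black bars for the mean ± SD of 3 arrays. PDF1.2b and PDF2.5 are lowest in groups with ABA, PDF2.1 is highest with ABA alone, and LCR69 and LCR68 are lower in both groups with DFPM.

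Counted over these 5 genes with limma, 1 rose and 2 fell with ABA, where 28.9% of all tested probe sets passed in either direction, and the median difference was -0.45 (log2) against -0.09 over all probe sets. With DFPM 0 rose and 2 fell, against 24% in either direction, with medians of -1.36 and -0.08. When DFPM was added to ABA 0 rose and 3 fell, against 12.6%, with medians of -1.79 and -0.09. When ABA was added to DFPM 1 rose and 1 fell, against 14.2%, with medians of -0.74 and -0.09. With array number as a block the counts that passed were 4, 3, 5 and 4 of 5 in the same order. Over all 14401 probe sets more passed with the block too, at 6982, 6821, 4486 and 5069. The counts rest on 5 genes that passed the filter, PDF2.1 through its arrays with ABA, and do not stand for all defensins. Both counted rises and 1 of the 3 falls when DFPM was added to ABA are those of PDF2.1, so nothing is read from them.

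Of 57 genes listed for jasmonate, ethylene and salicylic acid signalling and their targets, 5 had a probe set of 1 gene and 3 passed the filter. The others are not named singly in the platform table used and are not analysed here; the array may still hold probes for them. EIN3, the transcription factor that carries the ethylene signal, stayed between 10.20 and 10.60 (log2) on all 12 arrays, with differences of at most 0.06 in size in the 4 comparisons (limma, adjusted p from 0.854 to 1.00). GRX480 (ROXY19), a glutaredoxin of the salicylic acid response that is known to repress PDF1.2 when overexpressed, had log2 levels between 4.27 and 7.73 in control, between 3.69 and 5.77 with ABA, between 8.69 and 11.28 with DFPM, and between 7.0 and 10.64 with both agents. SAG101, a partner of the immune regulator EDS1, lay between 6.43 and 7.10 in control, 5.91 and 6.54 with ABA, 7.78 and 8.27 with DFPM, and 6.76 and 7.5 with both agents. For DFPM minus control these 2 genes passed (limma, adjusted p = 0.0383 for GRX480 and 0.0113 for SAG101), against 24% of all probe sets. The signalling list too was written with earlier results of these data known. Its choice may not be free of these levels, so nothing is read from its counts. GRX480 lost its call without any 1 array of DFPM or of numbers 1 and 2 of control or ABA (adjusted p up to 0.128). With array number as a block the adjusted p was 4.31e-05 for GRX480 and 0.0058 for SAG101 (limma). In that fit 6821 of all 14401 probe sets passed. In ABA minus control, ABA+DFPM minus ABA and ABA+DFPM minus DFPM 0 of 3 passed, against 28.9%, 12.6% and 14.2% of all probe sets. With the block 1, 2 and 2 of 3 passed there, against 6982, 4486 and 5069 of all 14401 probe sets. The thionin genes THI2.1 and THI2.2, which encode another family of small antimicrobial peptides, did not pass the filter.

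Among 7705 kept probe sets of 1 gene, those most like each defensin gene were named by Pearson's r of log2 levels over the 12 arrays, which share groups and array numbers. For PDF1.2 they were AT5G20400, AT2G27360 and AT1G52600, with r of 0.949, 0.947 and 0.946, and 0.968, 0.949 and 0.948 once each array number's mean was subtracted. AT5G20400 had mean levels of 9.22 in control, 6.26 with ABA, 10.16 with DFPM and 7.43 with both, the order of PDF1.2 itself except that the steps differ in size. For PDF1.4 they were AT2G43620, AT5G60260 and AT1G12790, with r of 0.981, 0.980 and 0.965, and 0.971, 0.963 and 0.943 after subtraction. For LCR67 they were AT1G26380, AT5G25930 and AT1G57650, with r of 0.979, 0.979 and 0.977, and 0.981, 0.978 and 0.978 after subtraction. AT1G57650 had mean levels of 2.21, 2.33, 7.28 and 7.25 in control, ABA, DFPM and ABA+DFPM. Ranked after subtraction instead, an order looked at once the values were known, the genes most like PDF1.4 were AT3G04210, AT2G39210 and AT2G27660, with r of 0.988, 0.981 and 0.981 but only 0.048, 0.378 and 0.498 before it. The gene most like LCR67 was then GSTU25 (0.994, and 0.933 before), and the gene most like PDF1.2 was AT5G07860 (0.978, and 0.738 before). The names therefore depend on how array number is treated, most of all for PDF1.4.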

How the data were processed

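Total RNA of whole seedlings was extracted with Trizol and RNeasy columns, labelled with biotin and hybridised to ATH1 arrays, per the labels' protocols. The authors deposited log2 expression values per probe set, made with GCRMA and affy per the submitters' processing notes, whose versions and options were not given in these sources. The values run from 2.14 to 15.56, as a log2 scale would. All arrays were used, without detection calls.

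Of 22810 probe sets, 64 Affymetrix controls were left out, and 14401 of 22746 were kept with at least 3 of 12 arrays at log2 4. Names came from the platform table and RefSeq rows of TAIR10.1, used for names and gene order: 13513 probe sets named 1 gene (13436 matched RefSeq), 503 several and 8730 none here.

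Groups were compared with limma 3.58.1 (R 4.3.3) (lmFit and eBayes, fitted to all 12 arrays), with two-sided p adjusted by the Benjamini-Hochberg method over kept probe sets and a threshold of 0.05. The fit was tested on simulated data. The rule for named genes took PDF1.2, PDF1.4 and LCR67, each kept gene of the defensin list, called genes of the signalling list and the 3 genes most like each defensin gene. Members and lists were chosen with earlier results of these data known. Deviations from group means correlated in each of 18 same-number pairs of arrays (r from 0.426 to 0.802), so array number was taken to pair the arrays. Since arrays numbered 3 stood apart in every group, this check cannot show whether numbers 1 and 2 pair separately. The main fit held 1 mean per group and left array number out. Array number entered only the differences within a number and the results named as with the block. Alternatives were quantile normalization, no or a stricter filter (log2 6), the block and arrays left out. Python 3.11.15, pandas 2.3.3, numpy 2.4.6 and matplotlib 3.10.9 were used. Sequences are not analysed here, so the planned promoter motif count was not run.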

Additional observations from a re-analysis of the deposited data

How the results depend on the processing

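The direction of each PDF1.2, PDF1.4 and LCR67 difference held under quantile normalization and without the arrays numbered 3, and with the replicate block it is the same by construction. Without number 3 the PDF1.2 difference for ABA+DFPM minus DFPM moved from -3.08 to -3.99 (log2), more than the SD pooled over both groups though less than that of ABA+DFPM. With 1 array left out, PDF1.4 ranged from 0.58 (without control 3) to 4.36 (without DFPM 3) for DFPM minus control, also moving by over 1.5 times without DFPM 1 (1.38) or DFPM 2 (1.29). For ABA+DFPM minus DFPM it ranged from -4.38 (without DFPM 3) to -0.72 (without ABA+DFPM 3), with -1.41 without DFPM 1 and -1.31 without DFPM 2. For ABA minus control it ranged from -5.19 (without control 3) to -2.46. PDF1.2 for ABA+DFPM minus ABA ranged from 0.72 (without ABA+DFPM 3) to 2.19 (without ABA 3), with 0.78 and 0.80 without ABA 1 and ABA 2. LCR67 for ABA+DFPM minus DFPM ranged from 0.71 (without DFPM 2) to 1.83 (without DFPM 3), with 0.75 without ABA+DFPM 3. LCR67 for ABA minus control, near background, took both signs (-0.43 to 0.34).

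Probe sets called for ABA minus control, DFPM minus control, ABA+DFPM minus ABA and ABA+DFPM minus DFPM numbered 4165, 3463, 1814 and 2049. With the replicate block they numbered 6982, 6821, 4486 and 5069, with numbers 1 and 2 alone, a setting added after the data were seen, 8364, 7146, 5276 and 7364, and with 1 array left out 2402 to 4669, 1981 to 4032, 904 to 2280 and 806 to 3246.

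For the defensin list the block gave 5 calls for ABA+DFPM minus ABA and 4 for ABA+DFPM minus DFPM, numbers 1 and 2 alone gave 4 for the latter, and no filter gave 1 for DFPM minus control, with LCR68 at adjusted p = 0.0996 (limma), and 2 for ABA+DFPM minus ABA, with LCR68 at 0.0906. With 1 array left out the list had 1 to 2 calls for DFPM minus control, 2 to 4 for ABA+DFPM minus ABA and 0 to 2 for ABA+DFPM minus DFPM: PDF2.1 lost its call there without DFPM 2, ABA+DFPM 1 or ABA+DFPM 2 (adjusted p up to 0.0781), and PDF2.5 without DFPM 1 or 3 or ABA+DFPM 1 or 2 (up to 0.0939). For the signalling list the block gave 1, 2 and 2 calls for ABA minus control, ABA+DFPM minus ABA and ABA+DFPM minus DFPM, numbers 1 and 2 alone gave 1, 1 and 2, and no filter gave 1 for DFPM minus control. With 1 array left out it had 1 to 2 calls for DFPM minus control, 0 to 1 for ABA+DFPM minus ABA and 0 to 1 for ABA+DFPM minus DFPM. No filter tests more probe sets, and arrays left out give fewer samples; the cause of the other moves was not tested.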

Other observations

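LCR59 (AT4G30070, also PDF3.2), a defensin gene that did not pass the filter, lay at 2.14 to 3.00 (log2) on 10 arrays, at 7.63 on DFPM array 3 and at 4.00 on ABA+DFPM array 3. The thionin gene THI2.2 stood at 4.43 and 4.35 in control arrays 1 and 2, at 3.32 in ABA array 1, and at 2.28 or below on the other 9 arrays.

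Pearson's r between PDF1.2 and PDF1.4 over the 12 arrays was 0.484, and 0.902 once each array number's mean was subtracted. For PDF1.2 and PDF1.2b it was 0.812 and 0.948. LCR67 had r of 0.301 with PDF1.2 and 0.269 with PDF1.4, and 0.269 and 0.583 after subtraction, while with LCR69 it was -0.957 and -0.955. These describe 12 arrays that share 4 groups and 3 numbers.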
